A study of Mus musculus with 32 samples.

Results

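Prostaglandins and leukotrienes are lipid mediators made from arachidonic acid by a short chain of enzymes, and 10 mouse genes of that chain and its side branch were followed here: Ptgs1, Ptgs2, Ptges, Hpgds, Tbxas1, Alox5, Alox5ap, Ltc4s, Lta4h and Pla2g7. They were listed by name for their role in synthesis or inactivation, with earlier results of these data known. Each was read from a probe set that the chip annotation assigns to a single gene symbol, and where a gene had several, from the one with the highest mean over the arrays of that chip. By this rule 9 of the 10 were measured, out of 17097 genes on the HT_MG-430_PM chip and 22180 genes on the Mouse Gene 2.0 ST chip. Ptgs1 was not analysed here. Genes under the 40th percentile of an array were taken as dim; the 9 exceeded it in all 16 arrays of each chip and so entered every test.

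The arrays held RNA of mouse tumour cells labelled as tumour-associated macrophages, the macrophages that gather in tumours. In the first experiment, cells enriched with CD11b magnetic beads came from neuroblastomas that arose in Th-MYCN transgenic mice (3 arrays) and from EG7 tumours in WT mice (3 arrays). EG7 is a transplantable T lymphoid tumour line, and CD11b is an integrin shared by macrophages, monocytes, neutrophils and other myeloid cells. In the second experiment, CD11b-enriched cells came from EG7 tumours in Myd88-/- hosts (5 arrays) and in WT hosts (5 arrays). Myd88 passes on signals from most Toll-like receptors and from receptors of the interleukin-1 family. In the third, population A (CD11b+, Ly6G-, Ly6C+, MHCII-) and population C (CD11b+, Ly6C-, MHCII+) were sorted from EG7 tumours. Their hosts were TNFR1-/- with Myd88flox/flox and Tie2-Cre (double KO), Myd88flox/flox with Tie2-Cre (Myd88 cKO), TNFR1-/-, or WT, with 2 arrays for each genotype and population. TNFR1, a receptor for tumour necrosis factor, is the product of Tnfrsf1a, and Tie2-Cre acts in endothelial as well as blood-forming cells. The deletions are those of the hosts, and the labels name none in the transplanted tumour cells. Ages were not given in the sources used here, and the glioma model that the study's design names was not analysed here.

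Arachidonic acid is cut from membrane phospholipids and then enters one of several routes. Cyclooxygenases, of which Ptgs2 encodes the inducible form, make prostaglandin H2. Terminal enzymes then turn it into prostaglandin E2 (Ptges), prostaglandin D2 (Hpgds) or thromboxane A2 (Tbxas1). 5-lipoxygenase (Alox5), helped by its membrane partner FLAP (Alox5ap), instead makes leukotriene A4, which becomes leukotriene B4 through Lta4h or leukotriene C4 through Ltc4s. Pla2g7 encodes a secreted phospholipase that inactivates platelet-activating factor, a related lipid mediator. Macrophages are a known source of these lipids, eosinophils and mast cells are known for leukotriene C4, and neutrophils for leukotriene B4.

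The promoters of Ptgs2, Alox5 and Hpgds are shown, since Ptgs2 passed the test by host Myd88, and Alox5 and Hpgds had the largest positive and negative mean differences between populations A and C among the 9. Alox5ap, with a smaller adjusted p than Alox5, has no promoter entry in the table used. RefSeq promoters of assembly GRCm38.p6 were matched by symbol for 9 of the 10 listed genes. Each sequence is the 250 bases before the annotated start, on the strand of the gene, and capitals mark motif matches.
Ptgs2 (chr1:150099781-150100030, plus strand): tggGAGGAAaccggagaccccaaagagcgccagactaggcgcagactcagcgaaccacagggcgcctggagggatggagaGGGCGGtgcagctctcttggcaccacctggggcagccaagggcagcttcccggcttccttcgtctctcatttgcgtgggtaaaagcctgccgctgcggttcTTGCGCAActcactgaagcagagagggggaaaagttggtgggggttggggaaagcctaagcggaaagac
Alox5 (chr6:116461179-116461428, minus strand): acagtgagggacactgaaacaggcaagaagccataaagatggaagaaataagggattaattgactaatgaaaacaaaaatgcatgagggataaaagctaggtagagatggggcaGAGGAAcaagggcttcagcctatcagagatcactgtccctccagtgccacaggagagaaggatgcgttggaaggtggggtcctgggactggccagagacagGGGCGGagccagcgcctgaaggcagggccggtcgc
Hpgds (chr6:65144731-65144980, minus strand): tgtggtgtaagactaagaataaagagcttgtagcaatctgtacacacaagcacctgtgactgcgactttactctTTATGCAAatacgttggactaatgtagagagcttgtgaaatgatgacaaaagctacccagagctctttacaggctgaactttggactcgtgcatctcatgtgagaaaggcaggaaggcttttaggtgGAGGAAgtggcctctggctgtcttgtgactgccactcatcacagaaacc

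Both strands were searched for 4 motifs, which do not overlap in these sequences. The C/EBP motif TTGCNNAA, of a family of factors active in myeloid cells, was present 69 to 62 bases before the Ptgs2 start and 176 to 169 bases before the Hpgds start, and 9.56% of all 32851 promoters hold it. The PU.1 core GAGGAA, of a factor needed by macrophages, was present in all 3 sequences and in 23.3% of promoters, and the GC box GGGCGG was present in Ptgs2 and Alox5 and in 32.7% of promoters. The NF-kB consensus was found in 7.25% of promoters and in none of the 9 matched ones. That says only that these letters are not in this window. A match is a description of the sequence and was not tested as a binding site.

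Values are RMA log2 signals, and each is read within its own experiment and gene. Array medians lay at 3.84 to 3.93 (tumour models), 2.95 to 3.03 (Myd88 hosts) and 5.31 to 5.5 (sorted cells). An array correlated with its own group at 0.973 to 0.99, 0.992 to 0.994 and 0.931 to 0.987 in those experiments. The pair of population A from WT hosts had the lowest value. Myd88 itself was lower in Myd88-/- hosts by -0.75 ± 0.10 (SE, limma adjusted p = 0.00175) and lower with the Myd88 deletion in population A (-1.79 ± 0.19, limma adjusted p = 0.000562) and C (-1.76 ± 0.19, limma adjusted p = 0.0036). Tnfrsf1a did not pass the test for TNFR1 loss in A (-0.34 ± 0.17, limma adjusted p = 0.39) or C (-0.54 ± 0.17, limma adjusted p = 0.233). Whether its probe set lies in the deleted part was not tested. The 6 macrophage and monocyte markers averaged 9.97 to 11.24 over all 32 arrays, and the neutrophil markers were also well above the medians in bead-enriched cells, at 7.26 to 10.16. Separate animals for the arrays of a group are not stated in the labels, and a p-value therefore reflects only spread among these samples, part of which may be technical.

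The Myd88 experiment asked which genes of bead-enriched cells depend on host Myd88, and among the 9 only Ptgs2 passed the test. Ptgs2 read 11.10, 11.45, 11.44, 11.09 and 11.38 in the 5 Myd88-/- arrays, against 12.03, 11.96, 12.06, 11.63 and 11.91 in the 5 WT arrays. All Myd88-/- arrays lay below all WT arrays. The difference was -0.63 ± 0.11 on the log2 scale (SE), a level 1.54 times lower in Myd88-/- hosts (n = 5 each, limma adjusted p = 0.0109 with Benjamini-Hochberg adjustment over 11915 genes). Of all genes tested, 1.44% were called at an adjusted p under 0.05, and 1.18% were called lower. In bulk RNA, fewer cells of a type that carries a transcript and less of that transcript per cell cannot be told apart.

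A second Ptgs2 probe set on the same chip moved in the same direction by more. It read 8.76, 9.40, 9.70, 9.30 and 9.33 in Myd88-/- hosts, against 10.64, 10.67, 10.61, 10.63 and 10.41 in WT hosts. Again no array of one group overlapped the other, and the difference was -1.29 ± 0.14 (n = 5 each, limma adjusted p = 0.000456). The size of the Ptgs2 difference therefore depended on the probe set, while its direction did not.

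**Figure D1:**
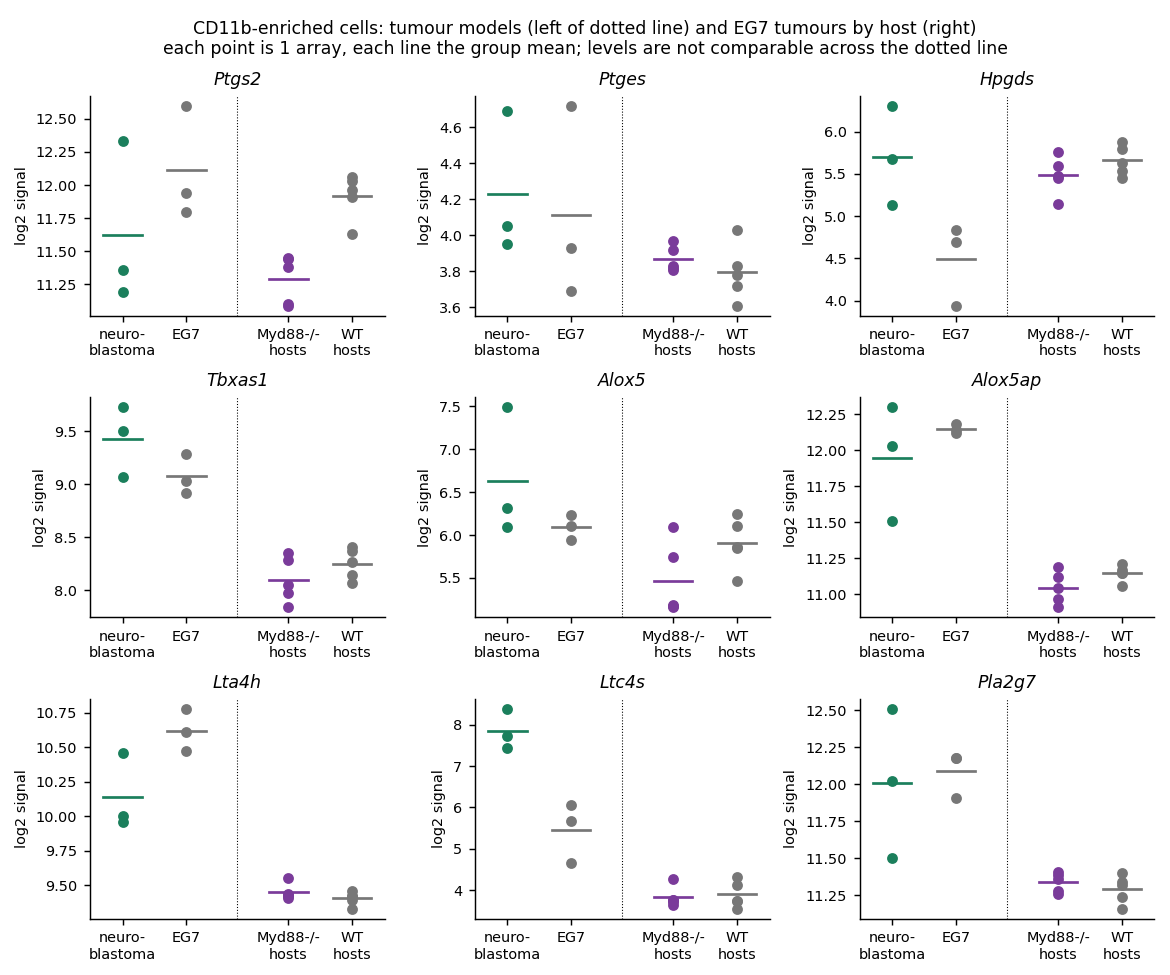
Log2 signal of the 9 measured genes in CD11b-enriched cells, with 1 point per array and a line at the group mean. Neuroblastoma and EG7 models (3 arrays each) are left of the dotted line, and Myd88-/- and WT hosts (5 arrays each) are right of it. Ltc4s, Hpgds and Lta4h separated the tumour models and Ptgs2 separated the hosts, and the groups overlap in the other panels. Only Ltc4s (models) and Ptgs2 (hosts) passed the test.

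The prostaglandin synthases downstream of Ptgs2 did not pass the test in Myd88-/- hosts. Ptges differed by 0.08 (95% interval -0.11 to 0.26), Hpgds by -0.17 (-0.43 to 0.08) and Tbxas1 by -0.15 (-0.39 to 0.09). Further Ptges probe sets gave -0.09 and -0.05, also without passing. In the leukotriene branch, Alox5 read 6.09, 5.74, 5.16, 5.18 and 5.17 in Myd88-/- hosts, against 5.86, 6.10, 6.24, 5.85 and 5.46 in WT hosts. The groups overlapped, and the Alox5 difference of -0.43 ± 0.19 did not pass (limma adjusted p = 0.389). Alox5ap, Lta4h and Ltc4s differed by -0.10 (-0.27 to 0.06), 0.05 (-0.10 to 0.19) and -0.07 (-0.41 to 0.27), and Pla2g7 by 0.05 (-0.11 to 0.21). The intervals of Alox5ap, Lta4h and Pla2g7 were the narrowest, all within a log2 difference of 0.27 either way.

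Among 35 other genes of the pathway that were tested (phospholipases, further synthases and lipoxygenases, breakdown enzymes, transporters and receptors), 1 fell and none rose in Myd88-/- hosts. It was Ptger4, a receptor for prostaglandin E2, which averaged 8.65 ± 0.14 in Myd88-/- hosts and 9.29 ± 0.18 in WT hosts (SD, n = 5 each), a difference of -0.64 ± 0.10 (SE, limma adjusted p = 0.00658). Over the 10 arrays Ptger4 was also the tested gene with the pattern most like that of Ptgs2 (Pearson r = 0.978), followed by Gabpb1 (0.966) and Ube2f (0.965). These coefficients are descriptions and include the difference between the hosts. The median difference was -0.10 over the 9 genes, -0.04 over the 35 and 0.01 over all genes tested. Of the marker lists examined, mean levels of the 6 macrophage and monocyte genes were 10.16 to 10.28 in Myd88-/- arrays and 10.25 to 10.46 in WT arrays, with 0 of 6 called by limma at an adjusted p under 0.05. Of 4 genes of the sorting gates 1 was called lower (median -0.42), and Ly6c1, named after its values were seen, averaged 9.02 ± 0.13 in Myd88-/- hosts and 9.83 ± 0.20 in WT hosts (SD, n = 5 each), with no overlap. Of 2 B lymphocyte genes 1 was called lower (median -0.33). The part of these shifts in the Ptgs2 and Ptger4 differences was not tested.

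Among the 9 genes, Ltc4s differed between the tumour models. Ltc4s, the leukotriene C4 synthase, read 7.73, 7.43 and 8.39 in neuroblastoma arrays, against 5.67, 6.06 and 4.66 in EG7 arrays. The groups did not overlap. Ltc4s was higher in neuroblastoma by 2.39 ± 0.41, or 5.23-fold (n = 3 each, limma adjusted p = 0.0124), and was the only one of the 9 that passed, where 14.7% of 12577 genes were called, 9.49% higher and 5.22% lower. Without EG7 replicate 1 the adjusted p was 0.0514.

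Hpgds and Lta4h also separated the models without passing the test. How many of all genes separated likewise was not counted. An unadjusted limma p under 0.05 was reached by 3 of the 9 and by 3786 of the 12577 genes tested. Hpgds read 6.31, 5.13 and 5.68 in neuroblastoma arrays, against 4.69, 3.94 and 4.84 in EG7 arrays. Every neuroblastoma array lay above every EG7 array, by 1.22 ± 0.36 (n = 3 each, limma adjusted p = 0.0718), and an adjusted p of 0.0291 without neuroblastoma replicate 2. Lta4h read 10, 9.96 and 10.46 in neuroblastoma, just below 10.78, 10.61 and 10.47 in EG7, a difference of -0.48 ± 0.19 (limma adjusted p = 0.149).

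For the other genes the models overlapped. Ptgs2 read 11.19, 12.33 and 11.36 in neuroblastoma arrays, against 11.80, 11.94 and 12.60 in EG7 arrays, with a difference of -0.49 (95% interval -1.34 to 0.37). The second Ptgs2 probe set read 7.25, 10.49 and 8.21 in neuroblastoma arrays, against 10.29, 9.99 and 10.94 in EG7 arrays. Its difference of -1.76 ± 0.78 did not pass (limma adjusted p = 0.19), and both probe sets placed neuroblastoma replicate 2 above the other neuroblastoma arrays. Alox5 differed by 0.54 (-0.33 to 1.41), with 7.49 in neuroblastoma replicate 1 and 5.94 to 6.32 in the other 5 arrays. Tbxas1, Alox5ap, Pla2g7 and Ptges differed by 0.35, -0.20, -0.08 and 0.12. With 3 arrays a group, the intervals of these 4 genes reached 0.87 in Tbxas1 and 0.90 in Ptges on the upper side, so sizable differences would have gone uncalled. Ptges signals, at 3.69 to 4.72, lay near the array medians. Its further probe sets gave -0.30 and 0.22 without passing, so its direction depended on the probe set.

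Of 36 other pathway genes tested, 4 rose and 4 fell in neuroblastoma. The breakdown and transport group had 2 of 8 higher and 2 lower, and the other lipoxygenases and leukotriene partners had 1 of 7 lower. Hpgd, which starts the inactivation of prostaglandins, averaged 7.67 ± 0.82 in neuroblastoma and 3.77 ± 0.23 in EG7 arrays (SD, n = 3 each), a difference of 3.90 ± 0.40 (SE, limma adjusted p = 0.00212). Ephx2, a soluble epoxide hydrolase, rose by 2.61 ± 0.47, Pla2g2d, a secreted phospholipase A2, by 1.57 ± 0.32, and Ptgds, the lipocalin-type prostaglandin D synthase, by 0.95 ± 0.21. Mgst2, a relative of Ltc4s that can also make leukotriene C4, averaged 4.74 ± 0.88 in neuroblastoma and 7.96 ± 0.04 in EG7 arrays (SD, n = 3 each), a difference of -3.22 ± 0.41 (SE, limma adjusted p = 0.00448). Abcc1, an exporter of leukotriene C4, fell by 1.13 on the log2 scale (limma adjusted p = 0.00448). Ptgr2, a prostaglandin reductase, fell by 0.70 and Lpcat2, which makes platelet-activating factor, by 0.77. Ltc4s and Mgst2 thus passed the test in opposite directions.

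Markers of other cells differed between the models. All 7 tested genes of sympathetic neurons were called higher in neuroblastoma, where their mean was 8.51 to 9.46 against 3.81 to 4.01 in EG7 arrays, and 6 of 7 T lymphocyte genes were called lower. Endothelial genes were higher in 4 of 6 and fibroblast genes in 2 of 5. Of the labelled cells' own lists, 1 of 6 macrophage and monocyte genes and 2 of 4 genes of the sorting gates were called lower (medians -0.23 and -1.23). Of the MHC class II genes of the gates, H2-Eb1 averaged 8.15 ± 1.35 in neuroblastoma and 12.71 ± 0.08 in EG7 arrays, and H2-Aa 10.64 ± 1.02 in neuroblastoma and 13.27 ± 0.06 in EG7 arrays (SD, n = 3 each). One mast cell and basophil gene, Gata2, was called higher and one, Cpa3, lower of 3 tested. The 8 mast cell and basophil markers averaged 3.71 to 3.89 in neuroblastoma and 3.58 to 3.77 in EG7 arrays, and the 5 eosinophil markers 3.69 to 4.53 and 3.89 to 4.39, near the array medians in both models. The part of these lists in the differences of Ltc4s, Hpgd or Mgst2 was not tested.

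The sorted cells asked how populations A and C differ and how that depends on TNFR1 and Myd88. As a mean over genotypes, population A carried more RNA of Alox5, Alox5ap and Lta4h and less of Hpgds and Tbxas1 than population C. In WT hosts alone, Alox5 (0.27), Alox5ap (0.41) and Lta4h (-0.26) did not pass with the probe sets used, though a second Alox5 probe set did. Eosinophil genes were also higher in A, and their part was not tested. Each SE of the sorted cells comes from 1 fit that pools the spread of A and C. Averaged over the 4 genotypes (8 arrays against 8), 4 of the 9 genes were higher in A (Alox5, Alox5ap, Lta4h and Pla2g7) and 3 were lower (Hpgds, Tbxas1 and Ltc4s). Calls were common in this comparison, with 32.3% of 16524 genes called, 11.1% higher and 21.3% lower.

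**Figure D2:**
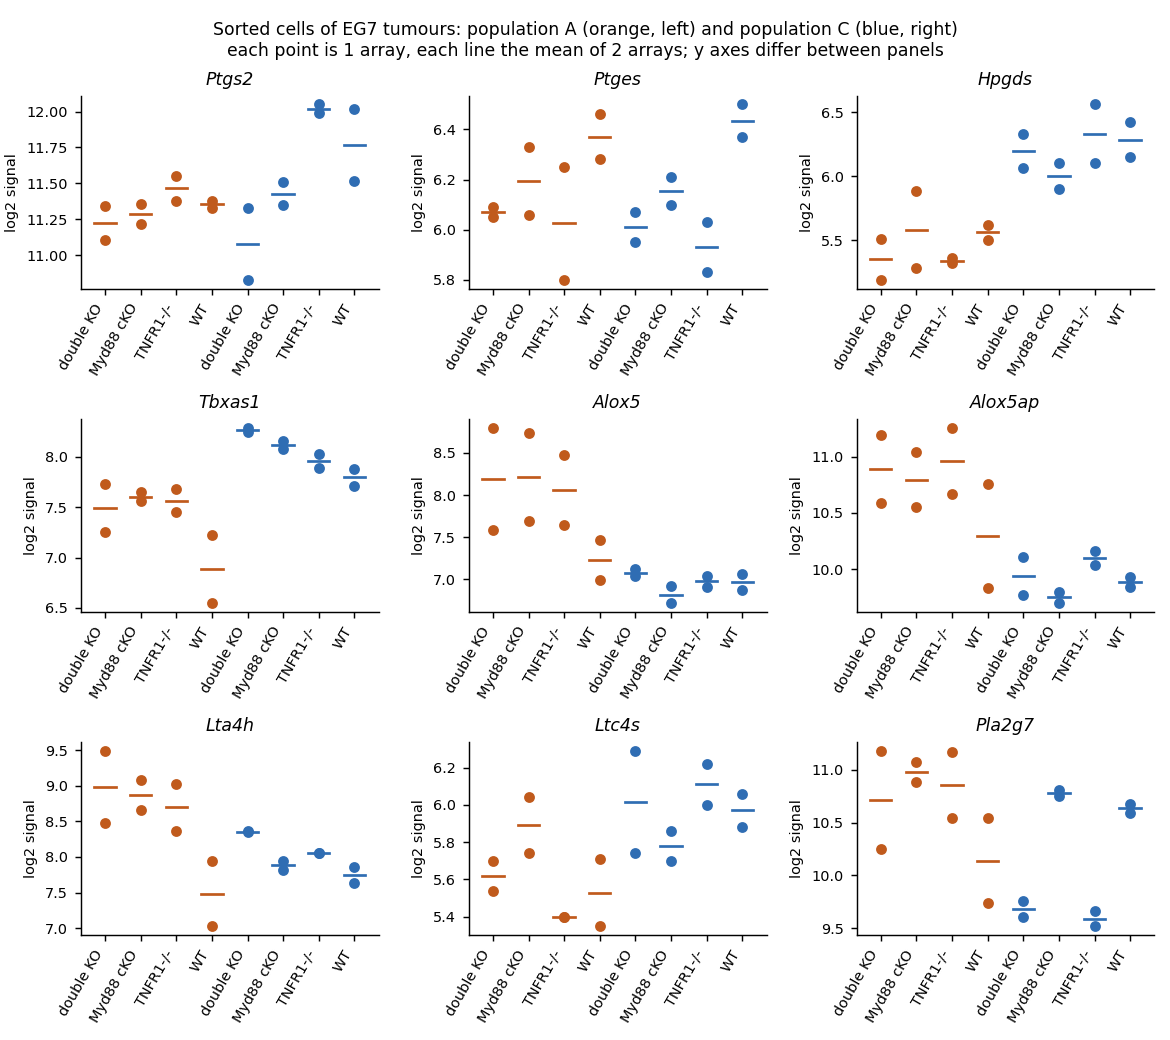
Log2 signal of the 9 measured genes in sorted cells, with 1 point per array and a line at the mean of each pair. Population A (orange) is left and population C (blue) right, each in the order double KO, Myd88 cKO, TNFR1-/- and WT. Alox5, Alox5ap and Lta4h stand above C in the 3 knockout genotypes of A and nearer to C in WT, and Hpgds and Tbxas1 of A stand below C in every genotype.

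Ptgs2 itself did not pass between the populations. In population A it read 11.11 and 11.34 in double KO, 11.22 and 11.36 in Myd88 cKO, 11.38 and 11.55 in TNFR1-/- and 11.33 and 11.38 in WT. In population C the same genotypes read 11.33 and 10.83, 11.51 and 11.35, 11.99 and 12.05, and 12.02 and 11.52. The 8 arrays of A spanned 11.11 to 11.55, inside the range of C, and the mean difference of -0.24 ± 0.10 did not pass (limma adjusted p = 0.0696). Ptges differed by 0.03 (95% interval -0.15 to 0.21), with all 16 arrays between 5.80 and 6.50.

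Hpgds and Tbxas1, which turn prostaglandin H2 into prostaglandin D2 and thromboxane A2, were lower in population A. Hpgds read 5.51 and 5.19 in double KO, 5.28 and 5.88 in Myd88 cKO, 5.32 and 5.36 in TNFR1-/-, and 5.62 and 5.50 in WT of population A. In population C it read 6.33 and 6.06 in double KO, 6.10 and 5.90 in Myd88 cKO, 6.56 and 6.10 in TNFR1-/-, and 6.15 and 6.42 in WT. The highest A array (5.88) stayed just under the lowest C array (5.90), and the mean difference was -0.75 ± 0.11, 1.68 times lower in A (limma adjusted p = 0.000128). Hpgds signals of A lay near the medians of those arrays, 5.37 to 5.5.

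Tbxas1 read 7.73 and 7.25 in double KO, 7.56 and 7.65 in Myd88 cKO, 7.45 and 7.68 in TNFR1-/-, and 7.22 and 6.55 in WT of population A. In population C it read 8.29 and 8.25 in double KO, 8.16 and 8.08 in Myd88 cKO, 7.89 and 8.03 in TNFR1-/-, and 7.88 and 7.71 in WT. A lay below C within each genotype, although the highest A array of the double KO was above the lowest C array of the WT. The mean difference was -0.65 ± 0.10, 1.57 times lower in A (limma adjusted p = 0.00029).

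Alox5 and its partner Alox5ap were higher in population A. Alox5 read 8.80 and 7.58 in double KO, 8.73 and 7.69 in Myd88 cKO, 7.64 and 8.48 in TNFR1-/-, and 7.47 and 6.99 in WT of population A. In population C it stayed between 6.72 and 7.12 in all 8 arrays. Only the lower WT array of A fell within the range of C, and the mean difference was 0.96 ± 0.19, or 1.95-fold (limma adjusted p = 0.00143). By genotype, A minus C was 1.11 in double KO, 1.39 in Myd88 cKO, 1.09 in TNFR1-/- and 0.27 in WT.

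A second Alox5 probe set gave a wider gap. It read 9.93 and 8.59 in double KO, 9.91 and 8.74 in Myd88 cKO, 8.78 and 9.72 in TNFR1-/-, and 7.91 and 6.92 in WT of population A. In population C it read between 5.07 and 6.07. No A array overlapped C, and the mean difference was 3.25 ± 0.23 (limma adjusted p = 4.51e-07). With this probe set the difference passed in WT hosts alone as well (2.15 ± 0.46, limma adjusted p = 0.00904), which it did not with the first (0.27 ± 0.38, limma adjusted p = 0.688).

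Alox5ap read 11.19 and 10.59 in double KO, 11.04 and 10.55 in Myd88 cKO, 10.67 and 11.26 in TNFR1-/-, and 10.76 and 9.83 in WT of population A, against 9.70 to 10.16 over the 8 arrays of C. All but the lower WT array of A lay above C, with a mean difference of 0.82 ± 0.15, or 1.76-fold (limma adjusted p = 0.000675). A dimmer second Alox5ap probe set, at 5.07 to 6.92 in A and 5.24 to 6.03 in C, gave 0.46 ± 0.17 (limma adjusted p = 0.0476). In WT hosts alone it ran the other way without passing (-0.34 ± 0.33, limma adjusted p = 0.541), where the first gave 0.41 ± 0.29 (limma adjusted p = 0.375).

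The enzymes that follow leukotriene A4 went opposite ways. Lta4h read 9.49 and 8.48 in double KO, 9.08 and 8.66 in Myd88 cKO, 8.37 and 9.02 in TNFR1-/-, and 7.94 and 7.03 in WT of population A. In population C it read 8.36 and 8.35 in double KO, 7.82 and 7.95 in Myd88 cKO, 8.06 and 8.06 in TNFR1-/-, and 7.86 and 7.63 in WT. A was above C in the 3 knockout genotypes and not in WT. The mean difference was 0.50 ± 0.16 (limma adjusted p = 0.03), and it passed in only 6 of 16 fits that left out 1 array, with adjusted p up to 0.0758.

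Ltc4s, the enzyme of the other branch, ranged from 5.35 to 6.04 in A and from 5.70 to 6.29 in C, where array medians were 5.31 to 5.5. The ranges overlapped, and A was lower in double KO (-0.40), TNFR1-/- (-0.71) and WT (-0.44) but not in Myd88 cKO (0.11). The mean difference was -0.36 ± 0.10, 1.28 times lower in A (limma adjusted p = 0.0115). A test of Lta4h against Ltc4s was not made, since levels of different probe sets are not on a common scale.

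Pla2g7, the hydrolase of platelet-activating factor, was higher in A by 0.50 ± 0.15 over the genotypes (limma adjusted p = 0.0179). That mean joined unlike genotypes, with A minus C at 1.03 in double KO, 0.20 in Myd88 cKO, 1.27 in TNFR1-/- and -0.50 in WT. In WT hosts the order was thus the reverse, at 10.54 and 9.74 in A and 10.68 and 10.59 in C, without passing the test (limma adjusted p = 0.28).

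**Figure D3:**
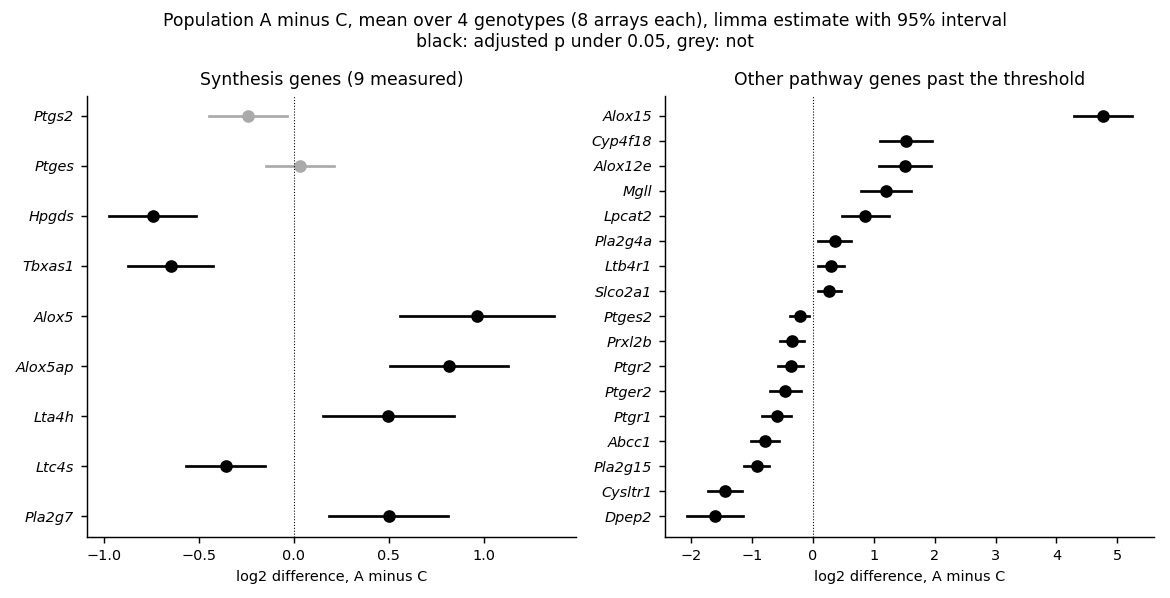
Log2 difference of population A minus C, mean over 4 genotypes with the 95% interval of the limma fit, for the 9 synthesis genes (left) and the 17 other pathway genes past the threshold (right). Black marks an adjusted p under 0.05. Alox5 (0.96) and Alox5ap (0.82) are highest and Hpgds (-0.75) and Tbxas1 (-0.65) lowest on the left, and Alox15 (4.77) stands apart on the right.

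In WT hosts alone, with 2 arrays against 2, only Hpgds (-0.73 ± 0.21, limma adjusted p = 0.0391) and Tbxas1 (-0.91 ± 0.21, limma adjusted p = 0.0121) passed among the 9, where 13.5% of genes were called, 3.53% higher and 9.92% lower. Neither passed when arrays were weighted by quality (limma adjusted p = 0.276 and 0.0847). Hpgds passed in 1 of 4 fits that left out 1 array of these groups, with adjusted p up to 0.162, and Tbxas1 in 2 of 4, with adjusted p up to 0.12. The median over the 9 genes was -0.42 in WT hosts and 0.03 over all genotypes, against -0.01 and 0.02 over all genes tested.

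Of 43 other pathway genes, 8 were higher and 9 lower in A over the genotypes. Alox15, the 12/15-lipoxygenase, averaged 11.94 ± 0.86 in double KO, 11.87 ± 0.45 in Myd88 cKO, 12.24 ± 0.47 in TNFR1-/- and 10.19 ± 0.83 in WT of A (SD, n = 2 each). In C it averaged 7.65 ± 0.69, 6.57 ± 0.25, 6.94 ± 0.13 and 6.01 ± 0.37 in the same genotypes. The difference of 4.77 ± 0.22 (limma adjusted p = 9.86e-09) was the largest among the pathway genes tested. Cyp4f18, which degrades leukotriene B4, was higher by 1.52 ± 0.20, and Alox12e, an epidermis-type 12-lipoxygenase, by 1.51 ± 0.20.

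Lower in A were Cysltr1, a receptor for cysteinyl leukotrienes (-1.44 ± 0.13), Dpep2, a dipeptidase that converts leukotriene D4 to E4 (-1.61 ± 0.21), and the lysosomal phospholipase Pla2g15 (-0.93 ± 0.10). Their limma adjusted p-values were 2.6e-06, 6.39e-05 and 8.75e-06. By group, 2 of 9 other lipoxygenases and leukotriene partners were higher and 1 lower. Of 7 breakdown and transport genes 2 were higher and 3 lower. The group of leukotriene and platelet-activating factor receptors, which also holds the enzyme Lpcat2, had 2 of 5 higher and 1 lower. Of 5 other prostanoid synthases 2 were lower and of 7 prostanoid receptors 1 was lower, with none higher in either group.

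Eosinophil markers were higher in population A. The mean of 5 such genes (Siglecf, Ccr3, Prg2, Epx and Il5ra) was 8.54 and 7.14 in double KO, 7.98 and 7.35 in Myd88 cKO, 7.54 and 8.35 in TNFR1-/-, and 6.81 and 6.09 in WT of A, against 5.10 to 5.37 in all arrays of C. All 5 of 5 were called higher in A, with a median difference of 1.96. In each of the 4 A pairs, the array with the higher eosinophil mean was also the one with more Alox5, Alox5ap, Lta4h and Pla2g7. The part of eosinophil transcripts in these results was not tested. Neutrophil markers were higher in 5 of 8 tested (mean of 9 measured 5.70 to 6.44 in A and 5.42 to 5.70 in C), and macrophage and monocyte genes were lower in 4 of 6 (9.97 to 10.68 in A and 10.43 to 11.02 in C). Fibroblast genes were higher in 4 of 5 (median 0.76, mean of 6 measured 5.77 to 7.05 in A and 5.52 to 5.78 in C), and in 4 of 5 in WT hosts alone (median 1.02). Endothelial genes were higher in 3 of 5 (median 0.57, mean of 6 measured 5.51 to 6.57 in A and 5.32 to 5.59 in C) and T lymphocyte genes in 3 of 7 (median 0.25). B lymphocyte genes were lower in 1 of 3, and platelet genes were higher in 1 and lower in 2 of 5. The part of these cells in the results was not tested. Mast cell and basophil genes were higher in 3 of 4 tested, while the mean of the 8 measured lay below the array medians, at 4.61 to 4.82 in A and 4.25 to 4.49 in C.

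**Figure D4:**
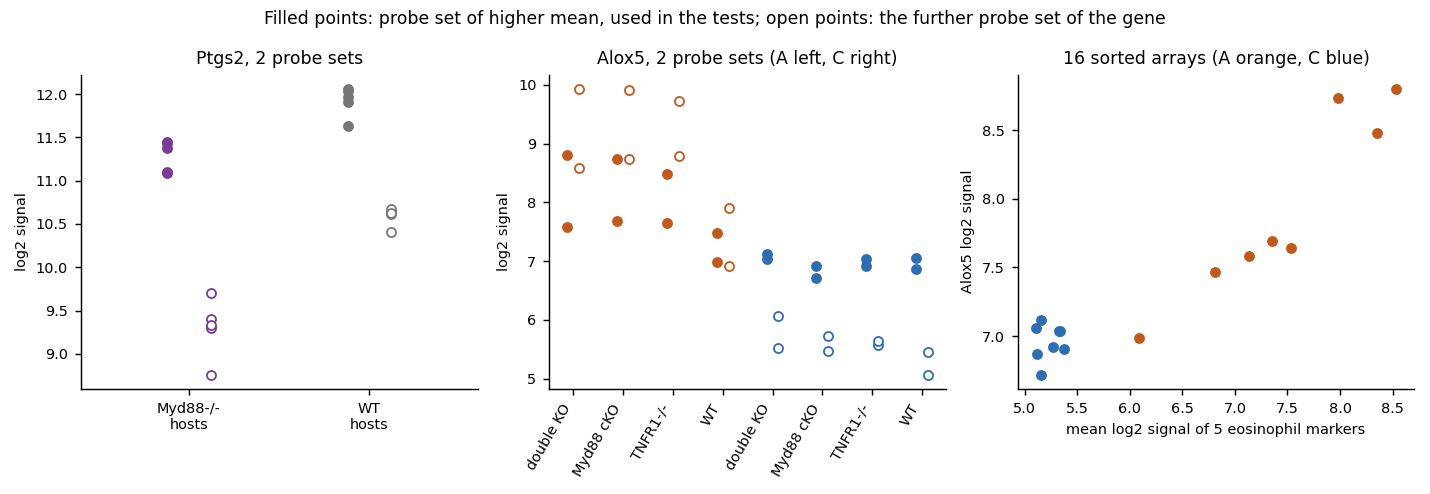
Left and middle, log2 signal per array of both probe sets of Ptgs2 by host (Myd88-/- left of WT) and of Alox5 by sorted group (A left of C). Filled points are the probe set used in the tests and open points the further one. Right, Alox5 against the mean of the 5 eosinophil markers in the 16 sorted arrays, where the arrays of A spread from 6.09 to 8.54 along the marker axis and those of C lie between 5.10 and 5.37.

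By the Pearson correlation over the 16 sorted arrays, the tested genes most like Alox5 were Lypd6 (0.986), F2rl2 (0.978) and Ear6 (0.974), a member of the eosinophil-associated ribonuclease family. Those most like Alox5ap were Rac2 (0.988), Grk6 (0.981) and Mboat7 (0.976). Lta4h was most like Ttc7b (0.975), Mob3a (0.969) and Kmt2e (0.962), and Pla2g7 most like Lpcat2 (0.972), Ampd3 (0.944) and Sgms2 (0.926). Hpgds was most like Fnbp1l (0.95), Acvrl1 (0.93) and Ifnb1 (0.917), Tbxas1 most like Apeh (0.956), Lap3 (0.953) and Pi4ka (0.952), and Ltc4s most like Pparg (0.819), 4930429F24Rik (0.814) and Atg14 (0.803). These values describe likeness over arrays that include both populations.

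Pla2g7 was lower with TNFR1 loss in population C. Taking double KO and TNFR1-/- against Myd88 cKO and WT, Pla2g7 of population C read 9.76, 9.61, 9.52 and 9.66 without TNFR1, against 10.81, 10.75, 10.68 and 10.59 with it. The groups were separated by more than either spread, and the level was 2.10 times lower without TNFR1 (-1.07 ± 0.21, n = 4 each, limma adjusted p = 0.0218), where 1.09% of genes were called and 0.617% were called lower. The difference stayed between -1.11 and -1.03 when any 1 of the 8 arrays was left out, but the adjusted p was then 0.0737 to 0.113 in all 8 fits.

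In population A, Pla2g7 did not move that way. It read 11.18 and 10.25 in double KO and 10.54 and 11.17 in TNFR1-/-, against 11.07 and 10.88 in Myd88 cKO and 10.54 and 9.74 in WT. The groups overlapped, and the difference was 0.23 (95% interval -0.22 to 0.67). The difference between the effects in A and C was 1.30 ± 0.29 and did not pass (limma adjusted p = 0.191), where 0.103% of genes were called (0.00605% higher). Without double KO replicate 2 of A its adjusted p was 0.0271.

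Of the 43 other pathway genes, 1 was called for TNFR1 loss in C. It was Lpcat2, which makes the platelet-activating factor that Pla2g7 inactivates. Lpcat2 averaged 7.30 ± 0.47 in double KO and 7.54 ± 0.31 in TNFR1-/-, against 8.87 ± 0.21 in Myd88 cKO and 8.67 ± 0.06 in WT of C (SD, n = 2 each), a difference of -1.35 ± 0.25 (SE, limma adjusted p = 0.0192). Lpcat2 was also the gene with the pattern most like that of Pla2g7 over the sorted arrays. Of the marker lists examined for TNFR1 loss in C, 1 of 3 B lymphocyte genes was called higher (median 0.51). The B lymphocyte mean was 5.48 to 6.06 in double KO and 5.37 to 5.49 in TNFR1-/-, against 4.97 to 5.00 in Myd88 cKO and 5.10 to 5.32 in WT. The other lists had no call by limma at an adjusted p under 0.05, with medians of -0.32 over the 6 macrophage and monocyte genes and 0.12 over the 5 eosinophil genes. The part of B lymphocyte transcripts in these results was not tested.

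In population A, none of the 9 genes passed for TNFR1 loss, where 0.182% of genes were called by limma (0.0424% higher). Of the 16524 genes tested, 2287 had an unadjusted p under 0.05, among them 1 of the 9. That was Lta4h, at 9.49 and 8.48 in double KO and 8.37 and 9.02 in TNFR1-/-, against 9.08 and 8.66 in Myd88 cKO and 7.94 and 7.03 in WT. The difference was 0.66 ± 0.23 (limma adjusted p = 0.224). None of the 43 other genes passed, and the 2 of smallest p were Slco2a1, a prostaglandin transporter (-0.49 ± 0.13, limma adjusted p = 0.123), and Alox15 (1.06 ± 0.31, limma adjusted p = 0.166). Of the marker lists, 2 of 5 endothelial genes were called lower (median -0.38), and the other lists had no call. Eosinophil genes had a median of 0.965. Their mean was 7.14 to 8.54 in double KO and 7.54 to 8.35 in TNFR1-/-, against 7.35 to 7.98 in Myd88 cKO and 6.09 to 6.81 in WT. The part of these lists in the Lta4h, Slco2a1 and Alox15 values was not tested.

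**Figure D5:**
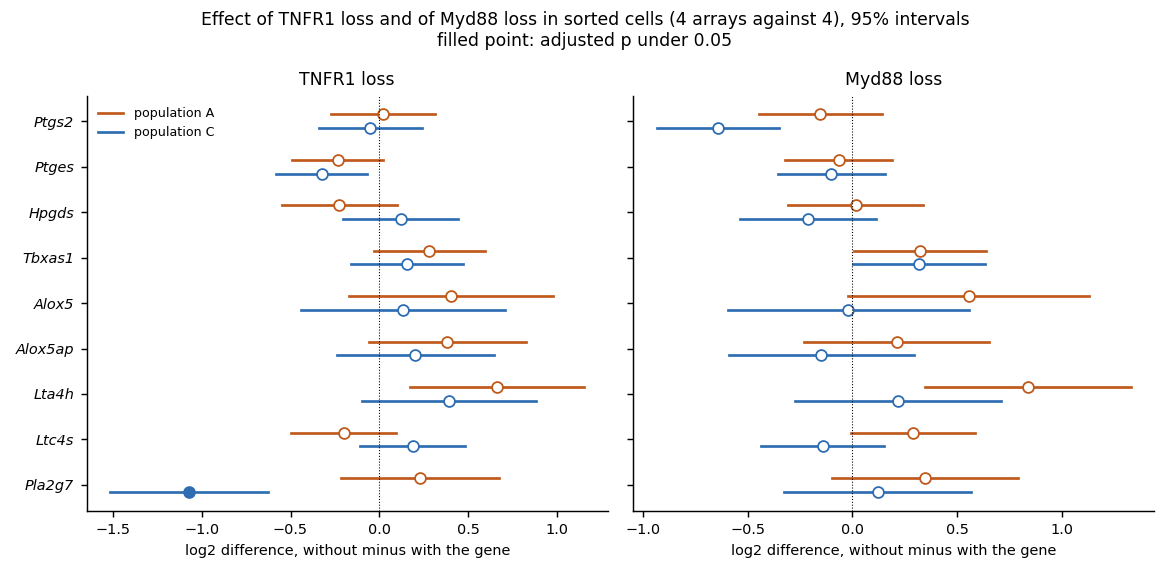
Log2 difference with 95% interval for TNFR1 loss (left) and Myd88 loss (right) in population A (orange) and C (blue), 4 arrays against 4. A filled point marks an adjusted p under 0.05, which was reached by Pla2g7 for TNFR1 loss in C (-1.07). Ptgs2 for Myd88 loss in C (-0.64) and Lta4h for Myd88 loss in A (0.84) lie away from 0 without passing.

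Ptgs2 of population C was lower with Myd88 loss, the direction seen in Myd88-/- hosts, without passing the test. In population C, Ptgs2 read 11.33 and 10.83 in double KO and 11.51 and 11.35 in Myd88 cKO, against 11.99 and 12.05 in TNFR1-/- and 12.02 and 11.52 in WT. Means were 11.08 in double KO and 12.02 in TNFR1-/-, a wider gap than between 11.43 in Myd88 cKO and 11.77 in WT. The highest array with the deletion (11.51) lay just below the lowest without it (11.52). The difference was -0.64 ± 0.14, 1.56 times lower with the deletion (n = 4 each, limma adjusted p = 0.245), where 0.0182% of genes were called (0.00605% higher). In population A it was -0.15 (95% interval -0.44 to 0.14). The difference between the populations was 0.49 ± 0.19 and did not pass (limma adjusted p = 0.489).

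The other genes in population C differed by -0.21 (Hpgds) to 0.32 (Tbxas1) for Myd88 loss, with intervals reaching 0.71 in Lta4h and 0.56 in Pla2g7. Limma called none of the 9 in the fit that pools the spread of A and C. An unadjusted p under 0.05 was reached by 2 of the 9 and by 771 of the 16524 genes tested. Tbxas1 read 8.29 and 8.25 in double KO and 8.16 and 8.08 in Myd88 cKO, against 7.89 and 8.03 in TNFR1-/- and 7.88 and 7.71 in WT. These groups did not overlap, with 8.03 just below 8.08, and the difference was 0.32 ± 0.15 (95% interval 0.00339 to 0.63, limma adjusted p = 0.998). The share of all genes that separated likewise was not counted, here or for Ptgs2. None of the 43 other pathway genes passed, and the 2 of smallest p were Ptgir, the prostacyclin receptor (0.32 ± 0.10, limma adjusted p = 0.719), and Mgst2 (-0.27 ± 0.10, limma adjusted p = 0.918).

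In population A, Myd88 loss gave no call among the 9, where 4.67% of genes were called by limma (4.19% higher). An unadjusted p under 0.05 was reached by 2 of the 9 and by 3579 of the 16524 genes tested. Lta4h came closest, at 0.84 ± 0.23 (limma adjusted p = 0.0525), and passed without WT replicate 1, TNFR1-/- replicate 2 or double KO replicate 2, in 3 of 8 fits that left out 1 array. Its double KO arrays (9.49 and 8.48) and Myd88 cKO arrays (9.08 and 8.66) stood against TNFR1-/- arrays of 8.37 and 9.02 and WT arrays of 7.94 and 7.03. The WT pair was the lowest, and the groups overlapped. T lymphocyte genes were called higher with the deletion in 4 of 7 (median 0.97), with a mean of 7.44 to 7.54 in double KO and 6.39 to 6.72 in Myd88 cKO, against 5.88 to 5.93 in TNFR1-/- and 6.50 to 6.69 in WT. Fibroblast genes were higher in 2 of 5, and endothelial and platelet genes in 1 of 5 each. Of the 5 eosinophil genes 0 were called (median 0.575). Their mean was 7.14 to 8.54 in double KO and 7.35 to 7.98 in Myd88 cKO, against 7.54 to 8.35 in TNFR1-/- and 6.09 to 6.81 in WT. The part of these lists in the Lta4h value was not tested. Abcc1 (0.52 ± 0.15, limma adjusted p = 0.0671) and Ptgis, the prostacyclin synthase (-0.26 ± 0.10, limma adjusted p = 0.146), had the smallest p among the 43 other genes.

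Against WT, Lta4h was higher in the double KO of population A by 1.5 ± 0.32, or 2.83-fold (n = 2 each, limma adjusted p = 0.0255), where 5.75% of genes were called, 4.33% higher and 1.42% lower. The call was lost with array weights, with population A fitted alone, without WT replicate 2 and without double KO replicate 1, with differences of 0.995 to 2.01 when 1 array was left out. Each single knockout of A stood above WT by a like amount, 1.39 in Myd88 cKO and 1.21 in TNFR1-/-, and these differences share the WT pair. Alox5 (0.96), Tbxas1 (0.61), Alox5ap (0.60) and Pla2g7 (0.58) were also above WT in the double KO of A without passing (limma adjusted p = 0.138, 0.095, 0.222 and 0.24).

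Further probe sets bore on that comparison. The second probe set of Alox5 was higher in double KO than in WT of A by 1.85 ± 0.46 (limma adjusted p = 0.0365) and that of Alox5ap by 1.21 ± 0.33 (limma adjusted p = 0.049). Among the 43 other genes, Alox15 passed (1.75 ± 0.44, limma adjusted p = 0.0378). Eosinophil markers moved with the genotype, 2 of 5 called higher in double KO of A, with a mean of 8.54 and 7.14 against 6.81 and 6.09 in WT. T lymphocyte markers did too, 4 of 7 called higher, with a mean of 7.44 to 7.54 against 6.50 to 6.69 in WT. Their part in the Lta4h, Alox5 and Alox15 values was not tested.

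In population C, limma called none of the 9 genes between double KO and WT, where 0.309% of genes were called. An unadjusted p under 0.05 was reached by 4 of the 9 and by 1019 of the 16524 genes tested. The fit held 1 spread per gene for A and C together, so an SE here is not that of C alone. Lta4h pairs had SDs of 0.007 (double KO) and 0.16 (WT) in C, against 0.71 and 0.64 in A. With population C fitted alone, 204 genes were called in place of 51, and a call among the 9 appeared. Pla2g7 read 9.76 and 9.61 in double KO and 10.68 and 10.59 in WT (-0.95 ± 0.29, limma adjusted p = 0.37), and Ptgs2 11.33 and 10.83 in double KO and 12.02 and 11.52 in WT (-0.69 ± 0.19, limma adjusted p = 0.259). Neither pair overlapped. Ptges differed by -0.43 ± 0.17 and Tbxas1 by 0.48 ± 0.21, also without overlap and without passing (limma adjusted p = 0.66 and 0.758). Lta4h (0.61 ± 0.32, limma adjusted p = 0.904) did not overlap either. With 2 arrays against 2, non-overlap is common by chance, and its share over all genes was not counted. Lpcat2 (-1.37 ± 0.36, limma adjusted p = 0.205) and Alox15 (1.64 ± 0.44, limma adjusted p = 0.229) had the smallest p among the 43 other genes.

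Tests of whether the double KO departed from the sum of the single effects gave no call among the 9 in A or C. In A, Lta4h departed by -1.10 ± 0.46 (limma adjusted p = 0.433), Pla2g7 by -0.98 ± 0.41 and Tbxas1 by -0.80 ± 0.29, all below the sum. An unadjusted limma p under 0.05 was reached by 3 of the 9 and by 1714 genes, and 12 of 16524 genes (0.0726%) were called. That count was 0 with population A fitted alone and 3 to 545 without 1 array. In C, 1 of the 9 had an unadjusted p under 0.05, Ptgs2 at -0.60 ± 0.27 (limma adjusted p = 1), where 0 genes were called at an adjusted p under 0.05 and 433 had an unadjusted p under 0.05. The effects in A and C did not differ past the threshold for any of the 9 genes under TNFR1 loss, Myd88 loss or the double KO, where 0.103%, 0% and 0.0363% (0.0242% lower) of genes were called by limma and 1074, 1532 and 1772 genes had an unadjusted p under 0.05. Without 1 array, the counts of genes called were 8 to 52 for TNFR1 loss, 0 to 15 for Myd88 loss and 2 to 97 for the double KO.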

How the data were processed

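The submitters' processing notes name RMA and Affymetrix Expression Console 1.1, from which the authors deposited log2 signals per probe set; the labels' protocols give 100 ng of total RNA per array. No source used here says whether experiments on a chip were normalised together, and each was fitted apart. Genes were named from the platform annotation, 1 probe set per gene (the highest mean). Genes were tested if above an array's 40th percentile in at least 3, 5 or 2 arrays (tumour models, Myd88 hosts, sorted cells). limma 3.58.1 (R 4.3.3) gave p-values with Benjamini-Hochberg adjustment, called below 0.05. The 8 sorted groups shared 1 fit, with 1 estimate of the spread per gene for A and C together. TNFR1 loss and Myd88 loss are means of the 2 knockout contrasts of each gene. The fit was tested on simulated data. The genes, pathway and marker lists were chosen with earlier results of these data known, and the GC box and PU.1 motifs were added after the values were seen. Beyond the 9, the text names up to 6 pathway genes of smallest adjusted p past the threshold, otherwise the 2 of smallest p, and the 3 most correlated genes; Ptgr2, Lpcat2 in the tumour models and marker genes were named after their values were seen. Alternatives covered the filter, probe sets, variance model, array weights, normalisation, replicate block, population and single arrays.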

Additional observations from a re-analysis of the deposited data

Results flagged for a closer look

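Of 20 sets of 5 arrays examined (the 9 genes and Ptger4, each in Myd88-/- and WT hosts), 2 had 1 array that stood far from the others, and chance gives about 1 such set in 20. Both were in Myd88-/- hosts of the EG7 tumour. Ltc4s read 4.26 in replicate 1, with the next array at 3.76 and the lowest at 3.64, so the gap was 0.806 of the range. Lta4h read 9.55 in replicate 4, with the next array at 9.44 and the lowest at 9.41, a gap of 0.786 of the range.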

How the results depend on the processing

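Of 882 values of 135 differences under settings other than leaving out an array, 875 kept their side of the threshold, 4 lost a call and 3 gained one. Only 13 of the 135 were called in the main fits, and the 875 include differences that were uncalled and stayed so. Hpgds and Tbxas1 of A against C in WT hosts lost their calls with array weights. Lta4h in the double KO of A lost its call with array weights and with population A alone. Direction was compared only where a call was made, and 0 of those values reversed. The count of the 9 genes called in neuroblastoma against EG7 was 1, became 2 with a replicate block and was 0 to 2 when 1 array was left out. In WT hosts, A against C gave 2 calls, 0 with array weights and 0 to 2 without 1 array, and over the genotypes 7 calls and 6 to 7. TNFR1 loss gave 0 calls in A (0 to 1 without 1 array) and 1 in C (0 in every fit without 1 array). Myd88 loss in A gave 0 calls, 1 with the replicate block and 0 to 2 without 1 array. The double KO in A gave 1 call, 0 with array weights or population A alone and 0 to 3 without 1 array, and in C 0 calls and 1 with population C alone. The difference between A and C gave 0 to 1 without 1 array for TNFR1 loss and for the double KO. The cause was not tested. Over all genes, calls in neuroblastoma numbered 1850, and 704 without EG7 replicate 1. In Myd88-/- hosts they numbered 172, 300 with array weights and 86 to 275 without 1 array. A against C in WT hosts gave 2223, 301 with array weights and 406 to 3429 without 1 array. TNFR1 loss gave 30 in A (0 with A alone, 122 after quantile normalisation, 3 to 677 without 1 array) and 180 in C (457 with C alone, 72 to 111 without 1 array). Myd88 loss gave 772 in A (37 with A alone, 150 to 2361 without 1 array) and 3 in C (31 with C alone). The double KO gave 950 in A (0 with array weights, 2 to 2345 without 1 array) and 51 in C (204 with C alone, 7 to 41 without 1 array). Departure from additivity in A gave 12 (0 with A alone, 27 after quantile normalisation, 3 to 545 without 1 array), and the double KO difference between A and C gave 6 (2 with array weights). Quantile normalisation changed the share of calls that were higher to 49.7% from 64.5% in neuroblastoma, to 44.3% from 34.2% for A against C, to 40.7% from 26.2% in WT hosts, to 70.1% from 89.8% for Myd88 loss in A, and to 59.7% from 75.3% and 40.7% from 56.9% for the double KO in A and C. Arrays with the same replicate number deviated together at correlations of -0.049 to 0.22, -0.251 to 0.226 and -0.5 to 0.375 in the 3 experiments. Arrays with different numbers gave -0.266 to 0.289, -0.388 to 0.338 and -0.375 to 0.5. In groups of 2 arrays the deviations mirror each other, so the sorted ranges cannot show pairing. Whether the numbers pair arrays was not settled, and the main fits took none as paired. The number of arrays, 2 to 5 a group, limits the precision.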
